A study of Mus musculus with 15 samples.

Results

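In the kidneys of mice infused with angiotensin II (Ang II), 37 protein-coding genes had their lowest levels in the Ang II group alone: the highest of the 5 Ang II mice was below the lowest mouse of the Control group and below the lowest mouse of the Ang II + QDG group. The genes were found by summing the FPKM (fragments per kilobase of transcript, scaled to the size of the library) of the annotated transcripts of each gene that were listed for all 15 mice. Of 11101 protein-coding genes with a sum of at least 1 FPKM in at least 5 mice, 37 met this rule, which is 0.333% of them. The genes were thus selected on their FPKM in all 3 groups, so the low level in Ang II relative to Control and to Ang II + QDG is how the genes were chosen and is described here without a test. The difference between Ang II + QDG and Control is not independent of the choice either, because a gene that stayed near the Ang II level with QDG could not meet the rule, and it is given with its interval.

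All mice were male C57BL/6 mice of the WT genotype, bought at 8 weeks of age and treated for 28 days after 1 week of adaptation. The Control mice received saline from an osmotic pump and water by gavage. The Ang II mice received Ang II at 500 ng/kg/min from the pump and water by gavage. The Ang II + QDG mice received the same infusion and a daily gavage of Qingda granule (QDG), a Chinese herbal formula, at 1.145 g/kg/day. Each group held 5 mice, and 1 RNA library was made from the renal tissue of each. The depth implied by the values was 68922803 to 81329475 reads per mouse, with medians of 79345472 in Control, 79123984 with Ang II and 70028760 with Ang II + QDG. All 10 markers of the proximal tubule, the most abundant epithelium of the kidney, were measured in the tissue, with a summed level of 4482 to 5632 FPKM per mouse. Summed podocyte markers were 79.0 to 86.4 FPKM in Control, 103.8 to 131.1 with Ang II and 103.3 to 127.5 with Ang II + QDG. Those of intercalated cells were 62.2 to 67.9, 70.4 to 96.7 and 73.3 to 98.7. Every other marker list that was measured overlapped between Control and Ang II. In bulk tissue, fewer cells of a type and less RNA per cell cannot be told apart.

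Ang II is the effector peptide of the renin-angiotensin system. It constricts vessels, promotes sodium reabsorption in the tubule and activates NADPH oxidases. The kidney tubule reabsorbs solutes with ATP from oxidative phosphorylation, and part of that machinery is encoded by the mitochondrial genome, which is transcribed separately from the nucleus. Interferon-stimulated genes, another class met here, are switched on through interferon receptors and complexes that contain STAT factors and bind an element in which the letters GAAA are repeated.

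By known function, which was assigned after the genes were found, 7 of the 37 genes belong to the mitochondrial genome or to mitochondrial gene expression and quality control, 6 are metabolic enzymes or lipid transporters, 5 act in the interferon response or in innate immunity, 5 in the lysosome, endosome or Golgi, 5 in ribosome formation, translation or RNA modification, 3 in cilia or as dynein chains, and 2 in peptide processing. The other 4 did not share a function. The size of the difference was measured as the smaller of the fold of the Control mean and the fold of the Ang II + QDG mean over the Ang II mean. It ranged from 1.06 (Pcca) to 8.40 (Mettl15), with a median of 1.22. It was at least 1.5 in 10 genes, between 1.2 and 1.5 in 14, and under 1.2 in 13. The median gene was 22.0% lower in Ang II than in Control. The innate immune group had the highest median of this fold, 1.66, and the cilium and dynein group the lowest, 1.12. The median of their means over all mice was 17.3 FPKM, against 7.52 FPKM for all protein-coding genes that passed the filter, and 12 of the 37, such as Btbd11, Lrat and Akr1b7, had a mean under 5 FPKM.

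**Figure D1:**
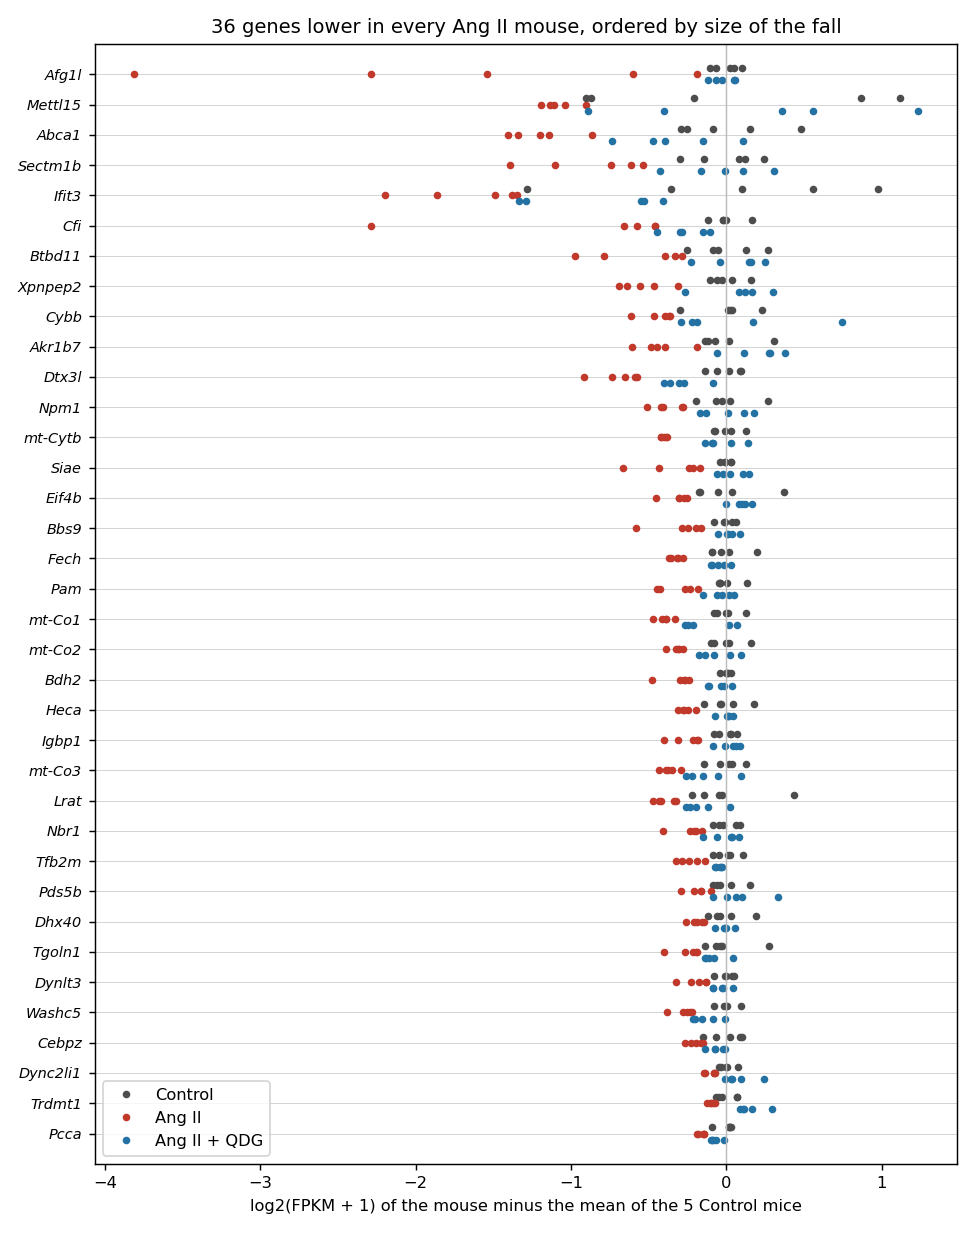
Level of 36 of the 37 genes in each mouse, as log2(FPKM + 1) minus the mean of the 5 Control mice, with 1 row per gene ordered by the size of the difference and 1 point per mouse (grey, Control; red, Ang II; blue, Ang II + QDG). The red points lie to the left of the grey and blue points in each row by the rule, widely spread in Afg1l and closely bunched in mt-Cytb.

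The share of genes that separated in this way can be set beside the other patterns of the same kind. Ang II lay below Control without overlap in 149 of the 11101 protein-coding genes (1.34%), and below Ang II + QDG without overlap in 162 (1.46%). The reverse pattern, highest only in Ang II, was found in 191 genes (1.72%). The genes low only in Control numbered 109 (0.982%), those high only in Control 18 (0.162%), those low only in Ang II + QDG 18 (0.162%) and those high only in Ang II + QDG 23 (0.207%). These counts depended on the scaling, and are given in turn for median scaling, quantile normalization and a total without the mitochondrial genome. Low only in Ang II numbered 108, 120 and 93 genes, and high only in Ang II 81, 70 and 94. Low only in Control numbered 59, 51 and 74, and high only in Control 48, 50 and 31. Low only in Ang II + QDG numbered 37, 31 and 17, and high only in Ang II + QDG 22, 15 and 31. The same 5 Ang II mice enter both sides of the rule. Ang II replicate 3 was the lowest mouse in 18 of the 37 genes, and Ang II replicate 1 was the highest of its group in 17.

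At the threshold, the 3 genes that met the rule most narrowly were Mettl15, Washc5 and Cebpz. In Mettl15 the highest Ang II mouse had 0.41172 FPKM and the lowest Control mouse 0.41175 FPKM. In Washc5 the highest Ang II mouse had 17.5984 FPKM and the lowest Ang II + QDG mouse 17.6329 FPKM, and in Cebpz the values were 9.5419 FPKM in Ang II and 9.57335 FPKM in Control. Just outside were Crbn (22.2415 FPKM in the highest Ang II mouse, 22.2352 in the lowest Control mouse), 5730455P16Rik (6.542 and 6.53933) and Ctsf (28.4642 and 28.4358). In 32 of the 37 genes the lowest other mouse was less than 10% above the highest Ang II mouse, and in the other 5 it was less than 20% above it.

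Promoter sequences are shown for 4 of the genes with the largest differences, because each holds a motif of a factor class known to regulate immune or lipid genes. Each run is the 250 bases before the RefSeq start on GRCm38.p6, 5′ to 3′ on the strand of the gene, with the motif named below in capitals. Other motifs that were searched are not marked, such as the TATA box of Abca1 and the CCAAT boxes of Ifit3 and Cybb. Ifit3 (chr19:34583279-34583528, plus strand) and Cybb (chrX:9469325-9469574, minus strand) hold the core of the interferon-stimulated response element, taken here as GAAA, any 2 bases and GAAA again. Abca1 (chr4:53159896-53160145, minus strand) holds an E-box, CACGTG, and Sectm1b (chr11:121063570-121063819, minus strand) the hexamer recognised by nuclear receptors, AGGTCA.
Ifit3: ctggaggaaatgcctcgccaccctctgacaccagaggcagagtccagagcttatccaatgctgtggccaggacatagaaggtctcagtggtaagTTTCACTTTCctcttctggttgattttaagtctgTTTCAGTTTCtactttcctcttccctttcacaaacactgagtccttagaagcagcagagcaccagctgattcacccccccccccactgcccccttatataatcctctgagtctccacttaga
Cybb: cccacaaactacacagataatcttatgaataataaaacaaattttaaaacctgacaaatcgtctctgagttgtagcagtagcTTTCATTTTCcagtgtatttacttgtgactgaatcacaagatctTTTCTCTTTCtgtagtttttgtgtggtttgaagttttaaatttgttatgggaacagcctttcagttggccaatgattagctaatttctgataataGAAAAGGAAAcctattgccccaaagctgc
Abca1: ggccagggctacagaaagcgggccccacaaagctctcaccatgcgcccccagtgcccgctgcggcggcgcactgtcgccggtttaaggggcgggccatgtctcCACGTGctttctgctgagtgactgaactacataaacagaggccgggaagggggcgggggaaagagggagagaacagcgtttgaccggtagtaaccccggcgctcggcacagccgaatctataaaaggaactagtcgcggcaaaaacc
Sectm1b: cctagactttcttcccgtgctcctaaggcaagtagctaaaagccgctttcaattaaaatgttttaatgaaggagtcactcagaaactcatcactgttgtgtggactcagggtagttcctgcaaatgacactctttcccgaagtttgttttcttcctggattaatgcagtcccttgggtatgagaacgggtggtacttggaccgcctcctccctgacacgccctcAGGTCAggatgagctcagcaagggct

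Both strands were searched, and the capitals above mark a match to the letters or to their reverse complement. Ifit3 had 2 matches to the interferon element, starting 156 and 122 bases before the start, and Cybb had 3, starting 168, 124 and 29 bases before it. The E-box of Abca1 started 147 bases and the hexamer of Sectm1b 26 bases before the start. RefSeq promoter windows were found for 24 of the 33 nuclear genes by symbol, here including 50 bases after the start. The interferon element was present in 3 of the 24 genes (12.5%; Cybb, Ifit3 and Nbr1) and in 3.64% of 8768 genes with a window. AGGTCA was present in 7 of 24 (29.2%) and in 15.1% of all. CACGTG was present in 3 of 24 (12.5%) against 11.9%, the CCAAT box (CCAAT) in 12 of 24 (50%) against 42.5%, and the GC box (GGGCGG) in 14 of 24 (58.3%) against 69.6%. The TATA box (TATAAA) was present in 1 of 24 (4.17%) against 8.70%, the HNF1 core (GTTAAT) in 1 of 24 against 5.74% and the AP-1 site (TGACTCA) in 1 of 24 against 4.46%. Matches to different motifs may overlap, and a match describes the sequence only.

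The mitochondrial group held 4 genes of the mitochondrial genome. Cytochrome b (mt-Cytb, chrM:14145-15288), a subunit of complex III, was 20124, 17442, 18780.0, 18304 and 17486 FPKM in the Control mice, 14111, 13753, 13721, 13936 and 14033 in the Ang II mice and 17345, 16712, 18796, 20289 and 17299 in the Ang II + QDG mice. The 5 Ang II mice lay close together, the mice of the other groups were more spread, and no Ang II mouse reached the range of either. mt-Co1 (chrM:5328-6872), the catalytic subunit of cytochrome c oxidase, was the most abundant of the 37 genes, with 33016, 28557, 30108, 28999 and 30405 FPKM in the Control mice, 24012, 21784, 23048, 23105 and 22599 in the Ang II mice and 25087, 26033, 30499.8, 31599 and 25452 in the Ang II + QDG mice. Here 3 of the Ang II + QDG mice lay between the highest Ang II mouse and the lowest Control mouse, and the other two lay within the Control range. mt-Co2 (chrM:7013-7696), which holds the site where the oxidase receives electrons from cytochrome c, had 13726, 11478, 12253, 12399 and 11622 FPKM in the Control mice, 10093, 9924, 9374, 9899 and 9786 in the Ang II mice and 11597, 10864, 12466, 13094 and 11148 in the Ang II + QDG mice. mt-Co3 (chrM:8607-9390), the third core subunit, had 12116, 10084, 11419.8, 11248 and 10821 FPKM in the Control mice, 9066, 8498, 8569, 8718 and 8229.8 in the Ang II mice and 10000.5, 9544, 10706, 11882 and 9289 in the Ang II + QDG mice. In both, the Ang II + QDG mice overlapped Control and lay above Ang II.

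The means of mt-Cytb were 18427 ± 1104, 13911 ± 171 and 18088 ± 1450.4 FPKM across Control, Ang II and Ang II + QDG (SD, n = 5 in each group, as for all means below). The Ang II mean was 24.5% lower than the Control mean, and for mt-Co1, mt-Co2 and mt-Co3 it was 24.2%, 20.2% and 22.6% lower. The annotated mitochondrial transcripts listed for all 15 mice together held 18.5% to 20.7% of the summed FPKM in Control, 15.4% to 16.02% with Ang II and 16.9% to 19.8% with Ang II + QDG. Of the 11 protein-coding genes of this genome in the table, 5 were below Control without overlap and 5 below Ang II + QDG without overlap, and 4 met both, beside 1.34%, 1.46% and 0.333% of all protein-coding genes. The 11 include mt-Atp8, mt-Nd4 and mt-Nd5, in which at least 1 mouse had under 1 FPKM. mt-Nd5 was among those below Control. The 2 mitochondrial ribosomal RNAs did not follow the same order: mt-Rnr1 had 572 ± 48.1 FPKM in Control, 344 ± 46.7 with Ang II and 337 ± 44.2 with Ang II + QDG, and mt-Rnr2 had 558 ± 69.9, 328 ± 31.2 and 332 ± 56.9. The protein-coding mt-Nd6, named after its values were seen, had 1961 ± 434, 1421 ± 251 and 1309 ± 413 FPKM across Control, Ang II and Ang II + QDG, so its mean was also no higher with QDG than with Ang II, and its groups overlapped. Both rRNAs were lower in Ang II + QDG than in Control (log2 differences of -0.77 and -0.76, adjusted p = 0.0160 and 0.0227, limma), and the libraries were made after rRNA depletion. Without Control replicate 4, 0 genes passed in that comparison, so neither rRNA did. Under median scaling and with the total taken without the mitochondrial genome the 4 mitochondrial genes met the rule, and the size of the mt-Cytb difference was 0.40 and 0.42 in place of 0.38 on the log2 scale. Quantile normalization gives genes of the same rank the same value in every mouse, and mt-Co1 and mt-Cytb ranked 1 and 2 in each mouse, mt-Co2 3 to 5 and mt-Co3 6 to 8, so it cannot show a difference in mt-Co1 or mt-Cytb and leaves little room for one in mt-Co2 (-0.01) or mt-Co3 (0.0015).

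**Figure D2:**
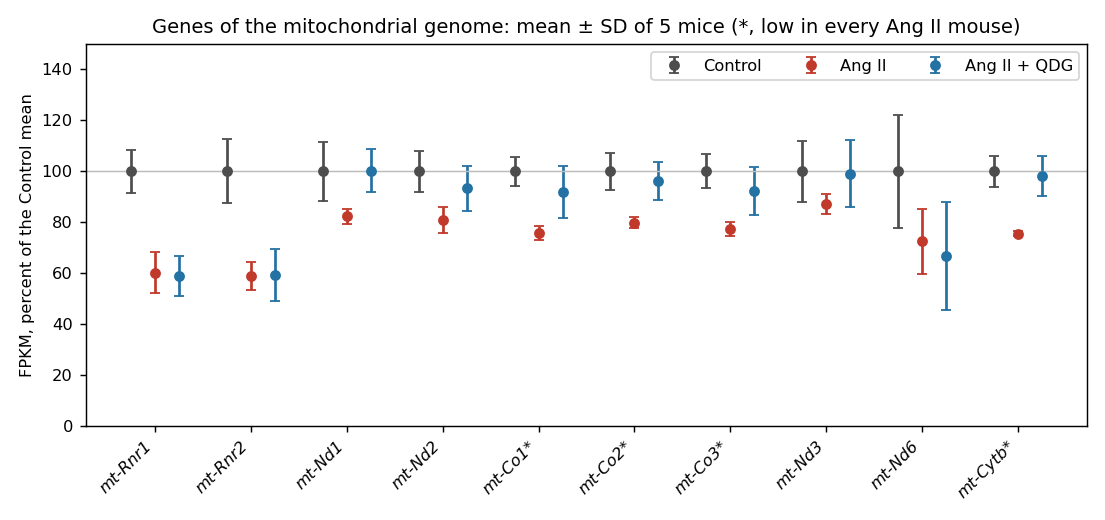
Genes of the mitochondrial genome as a percentage of the Control mean of FPKM; points are means and bars SD of 5 mice, and an asterisk marks the 4 genes that met the rule. The 4 marked genes have 75.5% to 79.8% of the Control mean with Ang II and 91.8% to 98.2% with Ang II + QDG, while mt-Rnr1 and mt-Rnr2 have 58.8% to 60.2% and 58.9% to 59.4% and mt-Nd6 has 72.5% and 66.7%; mt-Atp8, mt-Nd4 and mt-Nd5 are left out because at least 1 mouse had under 1 FPKM.

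The nuclear genes of the group were Afg1l, Mettl15 and Tfb2m. Afg1l (chr10:42312585-42478565), a mitochondrial AAA ATPase that takes part in protein quality control, was 14.3, 13.1, 12.8, 14.05 and 14.9 FPKM in the Control mice, 11.99, 4.09, 8.78, 2.03 and 0.0517 in the Ang II mice and 14.3, 14.4, 13.5, 12.7 and 13.1 in the Ang II + QDG mice. The Ang II mice ranged from near the Control level to almost nothing, and the lowest value rests on 10 reads, whereas the other 2 groups were narrow. Mettl15 (chr2:109092297-109280748), a methyltransferase of the mitochondrial small ribosomal RNA, had 3.8, 4.72, 1.28, 0.441 and 0.412 FPKM in the Control mice, 0.22, 0.153, 0.2002, 0.284 and 0.412 in the Ang II mice and 1.001, 0.423, 2.38, 5.21 and 2.88 in the Ang II + QDG mice. Its fold comes from high values in some mice, since 2 Control mice and 1 Ang II + QDG mouse lay just above the highest Ang II mouse. Tfb2m, a transcription factor of the mitochondrial RNA polymerase, had 14.6 to 16.8 FPKM in Ang II, 17.4 to 20.002 in Control and 17.5 to 18.2 in Ang II + QDG. The other core genes of mitochondrial transcription, picked after the members were known, overlapped between the groups: Tfam had 12.97 ± 0.498, 12.5 ± 0.759 and 13.5 ± 1.05 FPKM and Polrmt 8.99 ± 1.91, 9.98 ± 1.27 and 8.31 ± 2.39 FPKM across Control, Ang II and Ang II + QDG. Of 88 nuclear genes of oxidative phosphorylation, 0 were among the 37. With the deposited scaling, 19 were higher and 0 lower in Ang II than in Control (adjusted p under 0.05, limma). Of all 12366 genes tested, 4.95% were higher and 0.995% lower. In Ang II + QDG against Ang II, 0 of the 88 were higher and 4 lower, where 0.526% of all genes were higher and 1.29% lower.

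The interferon and innate immune group held Ifit3, Dtx3l, Sectm1b, Cybb and Cfi. Ifit3 (chr19:34583531-34588731), an interferon-induced protein that takes part in antiviral RNA sensing and whose promoter is printed above, had 13.1, 18.4, 9.28, 24.9 and 4.41 FPKM in the Control mice, 4.18, 2.61, 1.87, 4.04 and 3.68 in the Ang II mice and 4.2, 8.0003, 8.94, 4.38 and 8.1 in the Ang II + QDG mice. The Control mice were widely spread, and the lowest of them and 2 Ang II + QDG mice lay just above the highest Ang II mouse. Dtx3l (chr16:35926511-35939151), a ubiquitin ligase that pairs with PARP9 in interferon signalling and DNA repair, had 4.17, 4.19, 3.66, 3.93 and 3.43 FPKM in the Control mice, 2.23, 1.93, 1.58, 2.26 and 2.1 in the Ang II mice and 3.02, 3.58, 2.95, 2.78 and 2.69 in the Ang II + QDG mice. The means were ordered Control, Ang II + QDG, Ang II, Control overlapped Ang II + QDG, and Dtx3l had the widest gap of the 37 genes between the highest Ang II mouse and the lowest of the others, 1.19 times. Sectm1b (chr11:121053458-121063569), which encodes a secreted and transmembrane protein, had 22.6, 18.7, 16.6, 24.7 and 21.9 FPKM in the Control mice, 13.9, 12.004, 9.13, 7.26 and 13.2 in the Ang II mice and 25.9, 18.4, 15.1, 20.6 and 22.4 in the Ang II + QDG mice. Its Control and Ang II + QDG mice covered nearly the same range.

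Cybb (chrX:9435252-9487771) encodes gp91phox or NOX2, the catalytic subunit of the phagocyte NADPH oxidase, and had 2.11, 2.06, 2.56, 2.09 and 1.47 FPKM in the Control mice, 1.21, 1.36, 0.984, 1.31 and 1.35 in the Ang II mice and 1.48, 2.43, 1.67, 4.1 and 1.6 in the Ang II + QDG mice. The Ang II mice were tightly grouped, and 1 Ang II + QDG mouse stood far above the other 14. Its partner Cyba, picked after the members were known, had 335 ± 30.3, 366 ± 18.8 and 332 ± 24.9 FPKM across Control, Ang II and Ang II + QDG, and did not separate the groups. Cfi (chr3:129835884-129875332), the protease that inactivates the complement fragments C3b and C4b, had 4.57, 3.57, 3.89, 3.9 and 3.95 FPKM in the Control mice, 2.33, 2.15, 2.61, 2.61 and 0.0187 in the Ang II mice and 3.47, 3.04, 2.64, 3.62 and 3.07 in the Ang II + QDG mice. In Ang II replicate 5 the value rests on 3 reads, and the highest Ang II mouse lay just under the lowest Ang II + QDG mouse. Without Ang II replicate 5 the size of the Cfi difference, the smaller of Control minus Ang II and Ang II + QDG minus Ang II on the log2(FPKM + 1) scale, was 0.28 in place of 0.63, and it was the only one of the 37 that moved by more than 1.5 times when 1 mouse was left out.

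Among the other genes of the interferon-stimulated list, a list chosen with earlier results of these data known, 30 were tested. Of these, 12 were lower and 0 higher in Ang II than in Control at an adjusted p under 0.05 (limma), and 24 had their lowest mean in Ang II. Of all genes tested, 0.995% were lower and 4.95% higher, and 25.8% of protein-coding genes had their lowest mean in Ang II. In Ang II + QDG against Ang II, 1 of the 30 was higher and 0 lower, where 0.526% of all genes were higher and 1.29% lower. Their median log2 difference from Control was -0.55 with Ang II and -0.33 with Ang II + QDG, beside 0.083 and 0.059 over all genes tested. Ifit1, a neighbour of Ifit3 in the same gene family, had 5.16 ± 1.92, 1.42 ± 0.412 and 1.64 ± 0.519 FPKM across Control, Ang II and Ang II + QDG and overlapped between Ang II and Ang II + QDG, so it did not meet the rule. The near-identical copy Ifit3b had 2.76 ± 2.94, 1.02 ± 0.936 and 1.58 ± 0.844 FPKM with overlapping groups, and reads shared by Ifit3 and Ifit3b could have been split between them. Parp9, the partner of Dtx3l, had 2.44 ± 0.884, 1.495 ± 0.736 and 4.97 ± 0.767 FPKM, with Ang II + QDG above Ang II without overlap and Ang II overlapping Control. These 3 genes were chosen after their values were seen. Of 15 other complement genes, 1 was lower in Ang II than in Control (C4b) and 0 were higher, against 0.995% lower and 4.95% higher among all genes, and with QDG 1 was higher and 0 lower than in Ang II (0.526% and 1.29% of all genes).

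Markers of immune cells were compared beside these genes. The summed level of the 6 macrophage markers was 26.9 to 46.2 FPKM in Control, 22.9 to 34.8 with Ang II and 23.9 to 78.7 with Ang II + QDG. Of the 5 that could be tested, 0 passed in any comparison, and all 5 had their lowest mean in Ang II. Their median log2 difference was -0.39 for Ang II against Control, 0.35 for Ang II + QDG against Ang II and -0.07 for Ang II + QDG against Control. All 6 were measured, and none of the 7 lymphocyte markers was listed. The part of macrophage content in Cybb and the interferon genes was not tested.

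**Figure D3:**
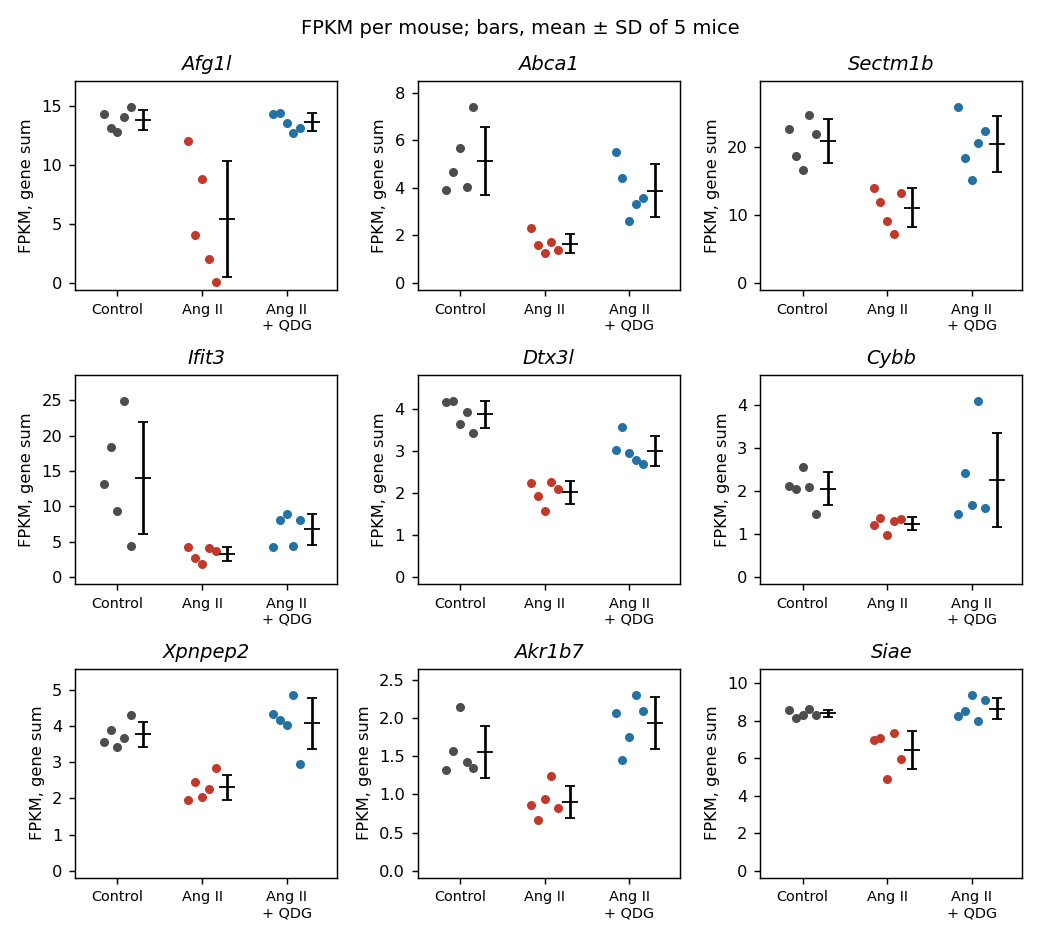
FPKM per mouse of 9 of the 37 genes on linear axes (points, mice; bars, mean ± SD of 5 mice; grey, Control; red, Ang II; blue, Ang II + QDG). The Ang II points are lowest in each panel; the Ang II + QDG means of Ifit3 and Dtx3l lie between the other means with points that overlap Control, whereas those of Sectm1b, Xpnpep2 and Siae lie near the Control means.

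Among the metabolic genes, Abca1 (chr4:53030787-53159895), the transporter that hands cellular cholesterol to apolipoprotein A-I, showed 3.91, 4.67, 5.68, 4.03 and 7.38 FPKM in the Control mice, 2.3, 1.61, 1.27, 1.72 and 1.38 in the Ang II mice and 5.49, 4.41, 2.61, 3.32 and 3.58 in the Ang II + QDG mice. Every Ang II mouse was below every other mouse, and the Ang II + QDG mice reached from just above Ang II into the Control range. The means were 5.14 ± 1.44, 1.66 ± 0.404 and 3.88 ± 1.105 FPKM, so the Ang II mean was 67.8% below Control. Akr1b7 (chr6:34412334-34423142), an aldo-keto reductase that removes aldehydes such as isocaproaldehyde, had 1.32, 1.57, 2.14, 1.42 and 1.35 FPKM in the Control mice, 0.866, 0.669, 0.937, 1.24 and 0.822 in the Ang II mice and 2.07, 1.45, 1.76, 2.3 and 2.1 in the Ang II + QDG mice. Its Ang II + QDG mean (1.93 ± 0.336 FPKM) was above its Control mean (1.56 ± 0.34 FPKM), and the 2 groups overlapped. The level was low, at 68 to 112 reads per Ang II mouse.

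Bdh2 (chr3:135281221-135304426), a short-chain dehydrogenase linked to the siderophore 2,5-dihydroxybenzoate, had 212, 209.8, 211, 214 and 204 FPKM in the Control mice, 174, 170.3, 150.4, 178 and 175 in the Ang II mice and 215, 208, 193, 194 and 205 in the Ang II + QDG mice. The Control mice were close together, and Ang II replicate 3 stood apart as the lowest mouse. Fech, ferrochelatase, which inserts iron in the last step of heme synthesis, had 63.3, 63.4, 68.4, 65.9 and 77.7 FPKM in the Control mice, 54.1, 55.5, 52.1, 54.1 and 52.6 in the Ang II mice and 65.03, 66.9, 62.95, 63.3 and 68.96 in the Ang II + QDG mice. The Ang II mice lay close together below both other groups. Lrat, which esterifies retinol for storage, had 0.619 to 0.792 FPKM in Ang II, 0.924 to 2.04 in Control and 0.878 to 1.28 in Ang II + QDG. Pcca, a subunit of propionyl-CoA carboxylase, had the smallest fold, 1.06, with means of 62.2 ± 2.27, 55.5 ± 0.942 and 59.1 ± 1.39 FPKM. Of 27 other ABC transporters tested, 1 was lower in Ang II than in Control (Abcg2) and 0 were higher, while 0.995% of all genes were lower and 4.95% higher, and 1 was higher and 0 lower in Ang II + QDG against Ang II (0.526% and 1.29% of all genes). Abcg1, which like Abca1 exports cholesterol and was picked afterwards, had 1.54 ± 0.858, 1.65 ± 0.957 and 1.84 ± 0.847 FPKM with overlapping groups. The cholesterol synthesis list, with 0 of the 37 genes, had 7 of 23 genes higher and 0 lower in Ang II than in Control, where 4.95% of all genes were higher and 0.995% lower, and 0 higher and 4 lower in Ang II + QDG against Ang II (0.526% and 1.29% of all genes).

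In the lysosome, endosome and Golgi, Siae (chr9:37555698-37649655), which removes acetyl groups from sialic acids, had 8.57, 8.12, 8.31, 8.59 and 8.3 FPKM in the Control mice, 6.95, 7.09, 4.91, 7.33 and 5.93 in the Ang II mice and 8.24, 8.52, 9.36, 7.98 and 9.09 in the Ang II + QDG mice. Control was narrow, and Ang II replicate 3 was the lowest. Nbr1, an autophagy receptor that binds ubiquitinated cargo, had means of 60.5 ± 3.13, 51.1 ± 3.43 and 60.05 ± 3.85 FPKM. Washc5, a subunit of the WASH complex of endosomes, had 20.7 ± 0.938, 16.9 ± 0.789 and 18.8 ± 1.19 FPKM, and Tgoln1, a protein of the trans-Golgi network with a similar copy Tgoln2, had 86.7 ± 10.4, 72.2 ± 4.36 and 81.5 ± 4.41 FPKM. Of 27 other autophagy genes, 1 was lower in Ang II than in Control (Lamp2) and 0 were higher, beside 0.995% and 4.95% of all genes, and 0 passed in Ang II + QDG against Ang II.

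Peptide processing was represented by a pair of genes. Xpnpep2 (chrX:48108725-48136981), a membrane-bound aminopeptidase P that can cleave bradykinin, had 3.57, 3.88, 3.43, 3.66 and 4.31 FPKM in the Control mice, 1.95, 2.45, 2.05, 2.25 and 2.83 in the Ang II mice and 4.34, 4.17, 4.04, 4.86 and 2.95 in the Ang II + QDG mice. Of the Ang II + QDG mice, 4 lay above 4 FPKM and replicate 5 just above the highest Ang II mouse. Pam (chr1:97795114-98095646), which amidates peptide hormones, had 52.3, 53.97, 59.1, 52.4 and 52.1 FPKM in the Control mice, 44.8, 39.8, 47.4, 45.7 and 39.3 in the Ang II mice and 52.8, 48.5, 54.5, 55.8 and 51.6 in the Ang II + QDG mice. The gap between the groups was small, at 1.02 times. Among cilium and dynein genes, Bbs9 (chr9:22475715-22888280), a subunit of the BBSome that carries cargo in cilia, had 4.76, 4.59, 4.85, 4.32 and 4.55 FPKM in the Control mice, 4.004, 3.91, 2.76, 3.6 and 3.73 in the Ang II mice and 4.64, 4.4, 4.75, 4.98 and 4.66 in the Ang II + QDG mice. The Control and Ang II + QDG mice overlapped. Dync2li1, a light intermediate chain of the dynein of cilia, had means of 18.99 ± 0.638, 17.6 ± 0.449 and 20.1 ± 1.49 FPKM, and Dynlt3, a light chain of cytoplasmic dynein, had 48.7 ± 1.75, 42.4 ± 2.38 and 47.5 ± 1.81 FPKM. Dynlt3 and Cybb lie on the same strand of chromosome X, 166 kb apart, and were the only pair of the 33 nuclear genes within 1000 kb of each other.

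Among genes of translation and RNA, Npm1 (chr11:33152287-33163206), the nucleolar chaperone nucleophosmin, had 52.5, 61.2, 57.5, 59.1 and 72.9 FPKM in the Control mice, 49.5, 45.1, 41.9, 49.3 and 44.7 in the Ang II mice and 53.6, 68.3, 55.1, 65.4 and 60.8 in the Ang II + QDG mice. The means were 60.6 ± 7.55, 46.1 ± 3.24 and 60.6 ± 6.39 FPKM, equal in Control and Ang II + QDG to the digits given. Eif4b (chr15:102073773-102097173), which stimulates the helicase eIF4A in translation initiation, had 78.4, 90.9, 85.4, 78.9 and 115 FPKM in the Control mice, 71.8, 71.6, 64.8, 73.3 and 74.2 in the Ang II mice and 88.6, 99.8, 93.9, 95.1 and 96.5 in the Ang II + QDG mice. The Ang II + QDG mice all lay above the 3 lowest Control mice. Both genes have processed copies elsewhere in the genome, which could have taken a share of their reads. Of 65 other translation factors, 8 were higher and 1 lower (Eif2ak2) in Ang II than in Control, beside 4.95% and 0.995% of all genes. In Ang II + QDG against Ang II, 0 of the 65 were higher and 5 lower, beside 0.526% and 1.29% of all genes. Cebpz, which takes part in ribosome assembly, had means of 10.7 ± 0.853, 9.21 ± 0.328 and 10.2 ± 0.402 FPKM, the helicase Dhx40 had 17.6 ± 1.55, 15.3 ± 0.498 and 17.5 ± 0.601 FPKM and the tRNA methyltransferase Trdmt1 had 3.17 ± 0.18, 2.9 ± 0.0572 and 3.65 ± 0.278 FPKM.

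Of the genes with no shared function, Btbd11 (chr10:85386814-85660292), which encodes a protein with BTB and ankyrin repeat domains, had 1.31, 1.05, 1.002, 0.784 and 1.55 FPKM in the Control mice, 0.231, 0.0828, 0.686, 0.743 and 0.613 in the Ang II mice and 1.37, 0.812, 1.52, 1.35 and 1.06 in the Ang II + QDG mice. The Ang II values were spread from 38 to 314 reads per mouse. Heca (chr10:17868612-17948067), the homologue of the fly cell cycle regulator headcase, had 9.33, 10.8, 10.1, 10.1 and 11.9 FPKM in the Control mice, 8.62, 8.22, 8.97, 8.48 and 8.42 in the Ang II mice and 10.6, 10.5, 10.4, 10.8 and 9.85 in the Ang II + QDG mice. Igbp1 (chrX:100494291-100516125), a regulatory protein of protein phosphatase 2A, had 37.3, 39.2, 39.1, 36.4 and 40.4 FPKM in the Control mice, 33.8, 28.9, 32.9, 33.6 and 30.8 in the Ang II mice and 40.1, 36.1, 38.2, 40.9 and 39.5 in the Ang II + QDG mice. In Heca and Igbp1 the groups were narrow and the Ang II means stood 18.4% and 16.8% below the Control means. Pds5b, a cohesin-associated protein, had means of 4.92 ± 0.407, 4.2 ± 0.259 and 5.29 ± 0.704 FPKM.

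The levels in Ang II + QDG and Control mice were compared in the fit over all 12366 genes. Genes still low with QDG had been left out by the rule, so the counts of the 37 genes describe them and are no evidence of a return to Control. At an adjusted p under 0.05 (limma), 0 of the 37 genes differed between Ang II + QDG and Control, where 16 of all genes did (0.129%). The count over all genes ranged from 0 to 110 when 1 mouse was left out, and that of the 37 stayed at 0. The smallest adjusted p among the 37 was 0.168, for Dtx3l. At an unadjusted p under 0.05 there were 4 of 37, against 14.4% of all genes: Dtx3l, Ifit3 and Washc5 were lower and Trdmt1 higher. A p above the threshold does not show equal levels, and the 95% intervals, which use the spread of all 3 groups, are given for that reason. In 32 of the 37 genes the interval lay within 0.5 on the log2(FPKM + 1) scale in either direction. That scale makes the differences and intervals of low genes smaller, and 12 of the 37 had a mean under 5 FPKM. The intervals were widest for Afg1l (-0.02, 95% interval -1.08 to 1.03) and Mettl15 (0.17, 95% interval -0.76 to 1.10). In Afg1l the width came from the Ang II mice (SD 4.91 FPKM, against 0.853 in Control and 0.744 in Ang II + QDG), and the standard error of 0.49 became 0.06 in a fit of the 10 mice of the 2 groups compared. In Mettl15 it went from 0.43 to 0.51. Ifit3 had a difference of -0.82, 95% interval -1.59 to -0.05 and Dtx3l of -0.29, 95% interval -0.48 to -0.09. Abca1 differed by -0.33, 95% interval -0.71 to 0.05 and mt-Co1 by -0.13, 95% interval -0.28 to 0.02.

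The median log2 difference of the 37 genes between Ang II + QDG and Control was -0.03, with 24 genes lower and 13 higher, and the median over all genes tested was 0.06. In the contrasts that the rule used, their median was -0.33 for Ang II against Control (0.08 over all genes) and 0.28 for Ang II + QDG against Ang II (-0.02 over all genes). As a description, the difference between Ang II + QDG and Ang II was 92.5% of that between Control and Ang II at the median gene. It was under 70% in 11 genes, between 70% and 130% in 22 and over 130% in 4 (Akr1b7, Pds5b, Dync2li1 and Trdmt1). The lowest share was that of Ifit3, 32.1%, followed by Washc5 with 49.3% and Dtx3l with 53.01%. Trdmt1 was the only gene of the 37 whose Ang II + QDG mice (3.44 to 4.12 FPKM) did not overlap the Control mice (2.99 to 3.37 FPKM), a separation seen in 3.74% of all protein-coding genes, and its difference was 0.15, 95% interval 0.02 to 0.29.

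**Figure D4:**
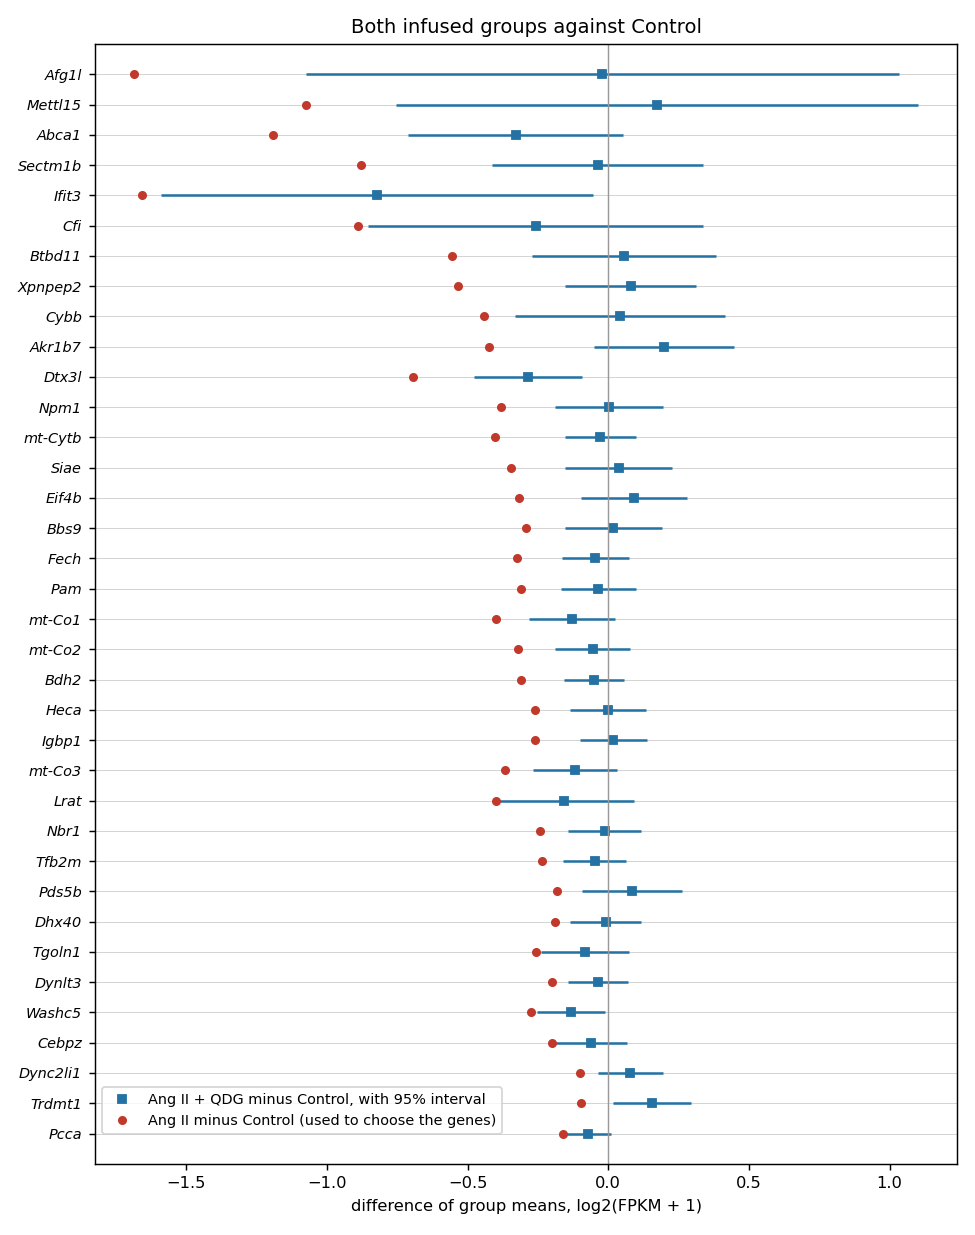
Difference of group means on the log2(FPKM + 1) scale for 36 of the 37 genes: Ang II minus Control (red circles, used to choose the genes) and Ang II + QDG minus Control (blue squares, with 95% intervals from limma). The blue intervals include 0 in all but 4 genes (Dtx3l, Ifit3, Washc5 and Trdmt1), and they are widest in Afg1l and Mettl15.

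On the linear scale, the Control mean was 8.4 times the Ang II mean in Mettl15, 4.28 times in Ifit3, 3.1 times in Abca1, 2.57 times in Afg1l, 2.42 times in Btbd11 and 2.05 times in Cfi, where it was 1.64 times without Ang II replicate 5. For Dtx3l, Sectm1b, Lrat, Akr1b7, Cybb and Xpnpep2 it was 1.92, 1.88, 1.81, 1.72, 1.66 and 1.64 times. The Ang II + QDG mean was 9.38 times the Ang II mean in Mettl15, 2.59 times in Btbd11, 2.53 times in Afg1l, 2.35 times in Abca1, 2.13 times in Akr1b7 and 2.05 times in Ifit3. In 5 genes the Ang II mean was under 50% of both other means (Mettl15, Ifit3, Abca1, Afg1l and Btbd11).

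The gene sums were also taken apart into transcripts. In 24 of the 37 genes the sum was that of 1 transcript, the only one listed for all 15 mice. Some of these genes have more annotated transcripts (4 for Afg1l, 5 for Mettl15, 8 for Btbd11 and 15 for Fech). Others, such as Ifit3 and Akr1b7, have 1. Transcripts not listed for all 15 mice are in no sum, and their part was not tested. In the other 13 genes the sum covered several transcripts. In 8 of those 13 (Xpnpep2, Bbs9, Pam, Bdh2, Nbr1, Tfb2m, Pds5b and Pcca) the most abundant transcript did not meet the rule by itself. In Nbr1 the top transcript ENSMUST00000107213 ranged from 15.9 to 48.1 FPKM in Control, 14.5 to 36.3 with Ang II and 18.9 to 43.4 with Ang II + QDG, while the sum of all 10 transcripts ranged from 56.9 to 64.3, 45.2 to 54.0 and 54.4 to 64.0. In Xpnpep2 the top transcript ENSMUST00000077775 had 0.188 FPKM in Ang II + QDG replicate 5, where the other transcript, ENSMUST00000114998, had 2.76 FPKM. In Bbs9 different transcripts led in different Control mice. With protein-coding transcripts alone, 33 of the 37 genes met the rule, and Pam, Tfb2m, Pds5b and Pcca did not. In Pam, transcripts of other types made up 30.9% of the sum.

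**Figure D5:**
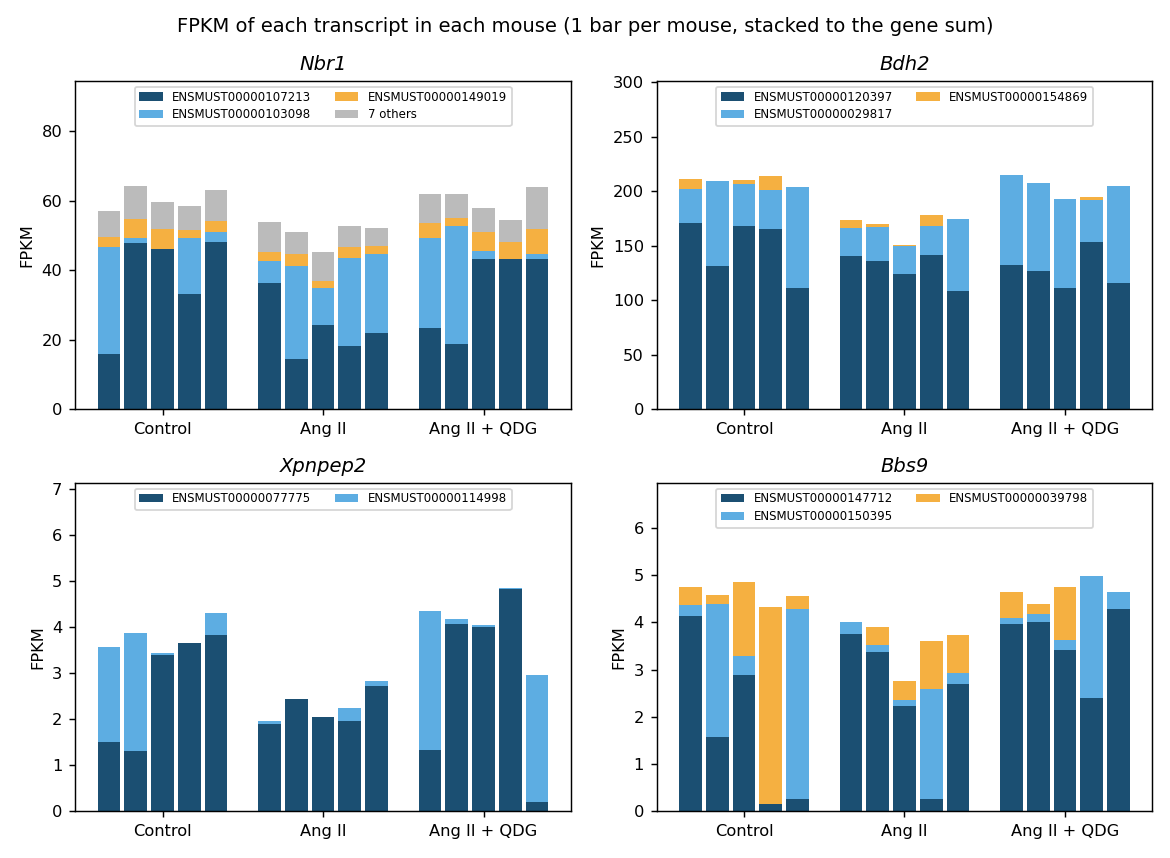
FPKM of each annotated transcript of Nbr1, Bdh2, Xpnpep2 and Bbs9, stacked to the gene sum, with 1 bar per mouse. The share of the transcripts changes between mice of the same group, whereas the height of the stack is lowest in the 5 Ang II mice.

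The unit sets each value relative to the total of its library, so the list also depended on how that total was taken. Median scaling gave 108 genes that met the rule, with 35 of the 37 among them, quantile normalization 120, with 28 of the 37, and a total without the mitochondrial genome 93, with all 37. Under all 3 scalings 27 of the 37 met the rule, and Btbd11, Cfi, Lrat, Mettl15, Pam, Pds5b and the 4 mitochondrial genes were those that did not under at least 1 of them, the 4 mitochondrial genes under quantile normalization alone. In Ang II against Control, 612 genes were higher and 123 lower at an adjusted p under 0.05 with the deposited scaling, 237 and 273 with median scaling, 227 and 266 with quantile normalization, and 296 and 190 without the mitochondrial genome. The counts within the gene lists above used the deposited scaling alone. Assembled transcripts without a gene name held 9.57% to 11.9% of the summed FPKM in Control, 11.3% to 11.7% with Ang II and 9.68% to 11.2% with Ang II + QDG, and they are in no gene sum. Their part in the result was not tested.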

How the data were processed

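Kidney RNA was sequenced in 15 mice, 5 per group. The authors removed rRNA (their methods also name poly(A) isolation) and deposited 1 value per transcript and mouse, labelled with mm10; limma is named in the submitters' processing notes, and the aligner is not given in the sources used here. The deposited values were taken as FPKM from the values: multiplied by transcript length they were whole multiples of 1 constant per mouse, within 0.05 reads, for 98.4% to 98.7% of values under 200 reads. Replicates were numbered in accession order.

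Transcripts were matched to GENCODE mouse release M21 (GRCm38). Genes with a sum of at least 1 FPKM in at least 5 mice were kept. limma 3.58.1 (R 4.3.3) was fitted with a trend to log2(FPKM + 1), with 1 mean per group and 12 residual degrees of freedom over the 15 mice, and p-values were adjusted by Benjamini-Hochberg over 12366 genes. The pseudocount of 1 makes the changes of low genes smaller. Other pseudocounts, filters, transcripts and scalings and the removal of each mouse were tried.

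The genes and the gene lists were chosen with earlier results of these data known. Values per mouse are given for the 24 genes with the largest difference (the smaller of Control minus Ang II and Ang II + QDG minus Ang II on the log2 scale) and the 6 most abundant, except 1 gene that is not reported here; the rule also named genes that differed between Ang II + QDG and Control, of which there were 0. The 3 genes nearest to the threshold on each side were named as well. Each value is from 1 mouse, and the p-values set differences of group means against the spread between mice.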

Additional observations from a re-analysis of the deposited data

Results flagged for a closer look

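In 8 of 111 groups of 5 mice (37 genes in 3 groups), 1 mouse lay apart from the other 4 by more than Dixon's test allows at the 95% level, and chance flags about 1 in 20 groups. In Ang II, Cfi was lowest in replicate 5 (0.0187 FPKM), and Eif4b (64.8 FPKM) and Bdh2 (150 FPKM) were lowest in replicate 3. In Control, Pam was highest in replicate 3 (59.1 FPKM), Lrat (2.04 FPKM) and Tgoln1 (105 FPKM) were highest in replicate 5, and Pcca was lowest in replicate 2 (58.1 FPKM). In Ang II + QDG, Tgoln1 was highest in replicate 2 (89.0 FPKM). Leaving out a mouse can only relax the comparison behind the rule. Without Ang II replicate 5 the size of the Cfi difference was 0.28 in place of 0.63 on the log2 scale.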

How the results depend on the processing

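No paired analysis was possible because the labels give no replicate numbers shared between groups. The number of genes that met the rule was 37, and 108 with median scaling, 120 with quantile normalization, 93 with a total without the mitochondrial genome, and 39 to 83 when 1 mouse was left out; among the removals of 1 mouse it moved most without Ang II replicate 1 (83), 4 (75) or 5 (57). With no filter, with protein-coding transcripts only and with transcripts listed in any file it was 39 to 40. The 16 genes called between Ang II + QDG and Control became 6 with protein-coding transcripts only, 4 in a fit of the 10 mice of these groups, and 0 to 110 when 1 mouse was left out (110 without Control replicate 2, 0 without Control replicate 4). The median log2 difference of the 37 from Control ranged from -0.1053 to -0.023, the lowest with median scaling. The size of the difference of mt-Co2 reversed to -0.0104 with quantile normalization, which sets genes of equal rank to the same value. With pseudocounts of 0.1 and 0.01 in place of 1, the size of the difference became 1.25 and 1.66 in Cfi (0.63), 2.11 and 2.43 in Mettl15 (1.08), 1.30 and 1.58 in Btbd11 (0.55), 0.73 and 0.78 in Akr1b7 (0.42), 0.47 and 0.52 in Lrat (0.24), 0.67 and 0.71 in Cybb (0.44) and 2.34 and 2.61 in Afg1l (1.67). Under the 3 other scalings it was 0.16 to 0.19 in Dync2li1 (0.10), 0.15 to 0.19 in Trdmt1 (0.10) and up to 0.15 in Pcca (0.09), and with protein-coding transcripts it was 0.14 in Pam (0.28). Of 370 values of this size in the 37 genes, 339 moved by less than 1 SD between mice; these were tried after the data were seen. Counting error limits the low values most, such as those of Cfi and Afg1l that rest on 3 and 10 reads.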
